A study of Homo sapiens with 2 samples.

Results

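The genes described here are 50 genes of the cell division cycle, read in the human acute myeloid leukaemia line KG1 after knockdown of T-bet. They were chosen by name, with earlier results of these data known. Every probe set that the platform annotation assigns to 1 of these symbols was taken. This gave 106 of the 54675 probe sets on the array and 50 of its 19775 named genes. The list falls into 22 S-phase genes, which license and copy the genome or drive entry into S phase, and 28 mitotic genes, which act from late S phase to the end of cell division. The siRNA-Tbet cells received 1.98 µg of the T-bet siRNA by electroporation, and the siRNAc cells 1.98 µg of a control siRNA. Both were rested for 5 h and then given interleukin-18 at 10 ng/ml for 12 h, so both carry an siRNA and the cytokine, and no unstimulated or untransfected cells were analysed here. Each group is 1 array of 1 transfected culture of 1 cell line. No value below therefore has a replicate error, no test of the treatment was possible, and the number of arrays limits the precision.

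Cells license their origins of replication in G1 by loading the MCM helicase, and E2F transcription factors then raise the genes of DNA synthesis as the cell enters S phase. Genes of mitosis are transcribed later, in G2, through a promoter element called the CHR (cell cycle genes homology region) that is bound by the DREAM and MuvB complexes with B-MYB and FOXM1. Because both sets are transcribed in dividing cells, their transcripts are widely read as signs of proliferation, and KG1 is a dividing line. In RNA from a whole culture, fewer cells in a phase and less of the transcript per cell cannot be told apart.

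The promoters of 6 members are shown first because they carry the elements that set the S-phase and the mitotic genes apart, and because these members lay among the farthest from a ratio of 1. The sequences are RefSeq promoters of GRCh38.p14, from 200 bases before to 25 bases after the annotated start, written in the direction of transcription. In the first 3, S-phase genes with lower signal in siRNA-Tbet cells, capitals mark matches to the E2F motif TTTNNCGC on either strand.
E2F1 (chr20:33686361-33686585, minus strand): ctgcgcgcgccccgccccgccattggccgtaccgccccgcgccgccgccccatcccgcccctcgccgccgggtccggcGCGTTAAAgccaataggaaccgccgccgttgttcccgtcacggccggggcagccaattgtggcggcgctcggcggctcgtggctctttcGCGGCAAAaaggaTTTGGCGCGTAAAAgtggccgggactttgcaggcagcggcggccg
CDC25A (chr3:48188393-48188617, minus strand): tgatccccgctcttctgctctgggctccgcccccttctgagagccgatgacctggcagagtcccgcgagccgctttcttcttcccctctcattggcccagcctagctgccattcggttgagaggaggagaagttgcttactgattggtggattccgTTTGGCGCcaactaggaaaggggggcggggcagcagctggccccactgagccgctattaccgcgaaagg
CDT1 (chr16:88803589-88803813, plus strand): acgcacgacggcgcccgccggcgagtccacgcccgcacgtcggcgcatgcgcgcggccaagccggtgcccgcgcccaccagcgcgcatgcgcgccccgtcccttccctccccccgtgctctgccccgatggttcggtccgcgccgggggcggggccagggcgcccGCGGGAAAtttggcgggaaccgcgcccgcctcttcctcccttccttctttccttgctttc
The E2F1 promoter held 4 matches, of which the last 2 overlap, CDC25A held 1, and CDT1 held 1 in the stretch shown and 1 more upstream of it. In the other 3, mitotic genes, capitals mark matches to the CHR motif TTTGAA on either strand.
TOP2A (chr17:40417872-40418096, minus strand): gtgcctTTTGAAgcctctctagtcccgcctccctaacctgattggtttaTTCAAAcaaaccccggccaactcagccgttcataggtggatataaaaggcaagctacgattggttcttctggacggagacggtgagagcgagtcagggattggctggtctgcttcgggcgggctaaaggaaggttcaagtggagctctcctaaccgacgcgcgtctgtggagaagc
NDC80 (chr18:2571357-2571581, plus strand): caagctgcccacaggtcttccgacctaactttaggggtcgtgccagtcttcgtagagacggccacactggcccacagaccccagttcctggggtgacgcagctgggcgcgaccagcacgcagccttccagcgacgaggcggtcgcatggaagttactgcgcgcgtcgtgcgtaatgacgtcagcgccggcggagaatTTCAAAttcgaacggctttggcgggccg
PRC1 (chr15:90994511-90994735, minus strand): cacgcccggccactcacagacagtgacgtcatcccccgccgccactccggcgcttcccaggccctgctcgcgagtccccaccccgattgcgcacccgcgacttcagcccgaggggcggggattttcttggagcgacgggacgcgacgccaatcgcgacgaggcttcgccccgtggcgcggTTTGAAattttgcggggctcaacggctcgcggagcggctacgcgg
TOP2A held 2 matches, and NDC80 and PRC1 held 1 each, next to the start. TOP2A and NDC80 had lower signals in siRNA-Tbet cells and PRC1 a higher one, so the 3 mitotic promoters belong to genes that lay on both sides.

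The array signals were deposited as MAS5 intensities in arbitrary units on a common scale. Differences are given as log2 ratios of siRNA-Tbet over siRNAc, after signals below 146, the higher of the 2 arrays' medians, were raised to that floor. A gene counts as measured when its chosen probe set lay over the floor on at least 1 array. The chosen probe set was the one with the highest mean signal, with sets that can cross-hybridise (suffix _x_at) used last. All 50 members and 12126 of 19775 genes were measured, and no chosen probe set of a member was at the floor. Of the members' 106 probe sets, 99 were measured. Without replicates, the only measure of noise is the technical spread, which is the SD between probe sets of the same gene at a given signal. It ran from 0.40 on the log2 scale for dim genes (median signal 217) to 0.12 for bright ones (median signal 9912) and leaves out all variation between cultures. As a check of the labels, the targeted gene TBX21 had a signal of 1839 in siRNA-Tbet cells and 3581 in siRNAc cells. CD34, the progenitor antigen that KG1 carries, had 17130 in siRNA-Tbet cells and 15839 in siRNAc cells, and PTPRC, the leukocyte antigen CD45, had 21790 and 22778. SPN, a sialoglycoprotein of leukocytes, was below the floor on both arrays, as were EPCAM, ALB and COL1A1 of epithelial, liver and connective tissue cells. PECAM1, an adhesion molecule of endothelial cells that blood cells also carry, had 2853 in siRNA-Tbet cells and 2935 in siRNAc cells. MS4A1, a B cell gene, had 88.3 in siRNA-Tbet cells and 183 in siRNAc cells.

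**Figure D1:**
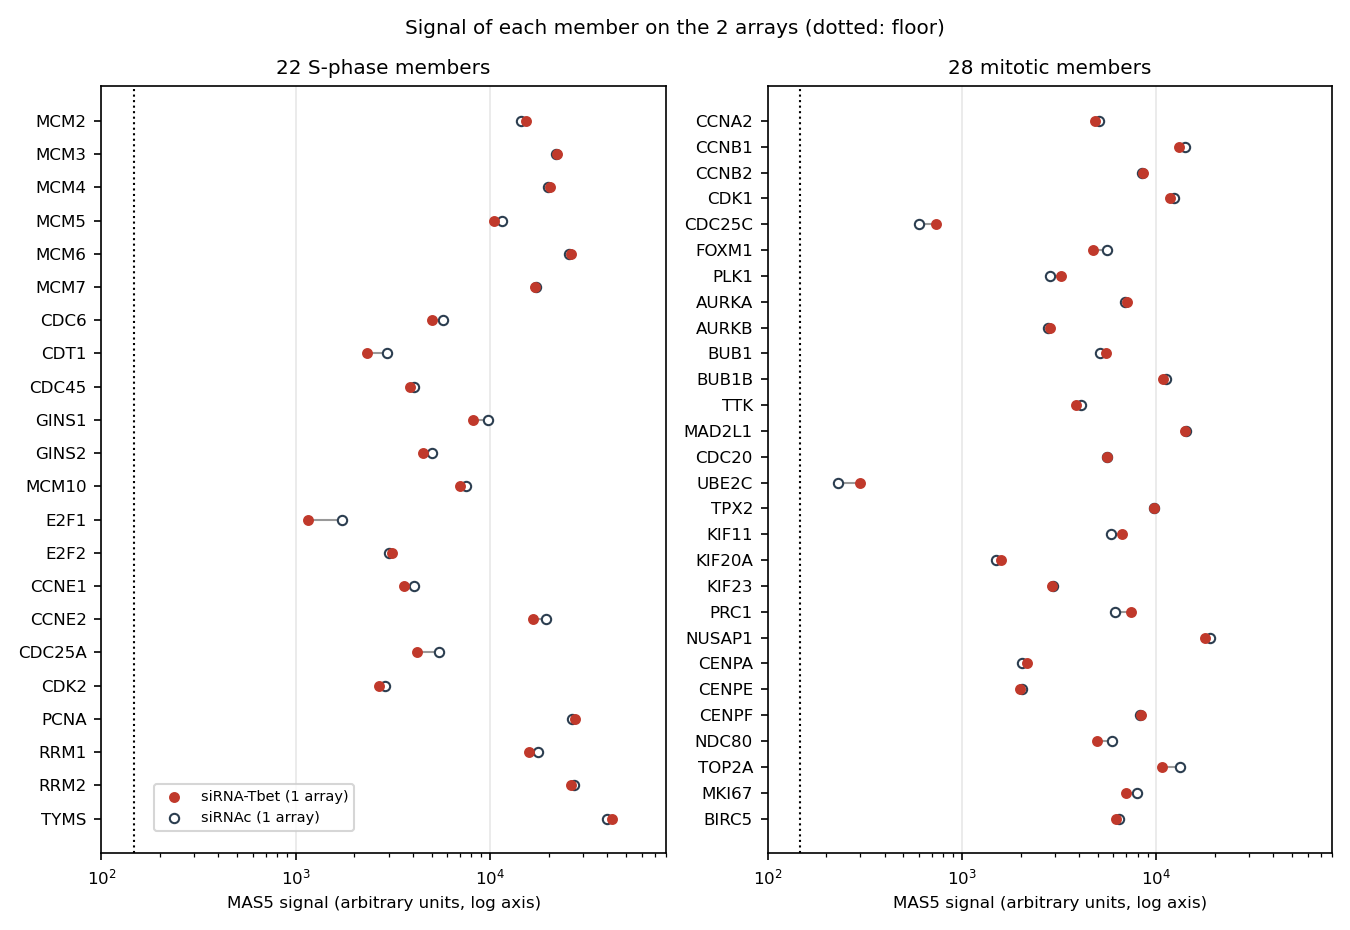
Signal of the chosen probe set of each member on a log axis, in arbitrary MAS5 units, with S-phase members on the left and mitotic members on the right; filled points are the siRNA-Tbet array, open points the siRNAc array, and the dotted line is the floor of 146. The pairs lie close together in most rows, and the widest gap among the S-phase members is that of E2F1, at 1152 in siRNA-Tbet cells and 1733 in siRNAc cells.

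The members as a whole differed little between the arrays, and the S-phase genes lay slightly further down than the mitotic genes. The median log2 ratio was -0.046 over the 50 members and -0.018 over all 12126 measured genes. It was -0.10 for the 22 S-phase members, or 6.89% lower in siRNA-Tbet cells, and -0.015 for the 28 mitotic members, a difference of -0.088. Lower signals were seen in 15 of 22 S-phase members and 15 of 28 mitotic members, which are 68.2% and 53.6%, where 53.6% of all measured genes were lower and 46.4% higher. The S-phase count depends on how the brightest signals are treated, since ratios drifted upwards there: after quantile normalization, and also after removal of the lowess trend, 20 of 22 S-phase members were lower, while the mitotic count stayed at 15 of 28. The 5 members that turned to lower were MCM3, MCM4, MCM6, PCNA and TYMS. With median scaling 15 of 22 S-phase members and 13 of 28 mitotic members were lower, and the mitotic median was 0.0069, on the other side of 0. That scaling moved all genes up together: the median of all measured genes was then 0.0034, and 49.3% of them were lower. With a call set at 20% lower or 25% higher, the same fold in either direction, 3 members were called lower, against 10.9% of all measured genes, and 1 higher, against 7.68%. These shares come from all signals, and dim genes vary more. Among genes with signals over 1000 on both arrays, 4.17% were called lower and 2.73% higher, and of the 48 members in that range 3 were lower and 0 higher. At 1.5-fold, 1 member, E2F1, was lower, against 2.88% of measured genes, and 0 were higher, against 1.96%. No member reached 2-fold, against 0.305% of measured genes lower and 0.223% higher.

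Each difference was also set against the technical spread at its signal. Of the 22 S-phase members, 10 were lower by more than that spread and 0 were higher. Of the 28 mitotic members, 4 were lower and 3 were higher by more than it. After median scaling the S-phase count was 7 lower and 0 higher, and after quantile normalization or lowess the mitotic count was 6 lower and 5 higher. Over all measured genes the shares were 17.0% lower and 12.8% higher, and over genes with signals above 1000 they were 16.2% and 12.8%. Probe sets of the same gene also tended to the same side. Of 30 members with 2 or more measured probe sets, all probe sets were lower in 16, where 22.0% of such genes on the array showed this, and all were higher in 2, where 19.4% did. With signals over 1000 on both arrays, the shares were 20.5% and 20.2% of such genes. The 16 were 11 of 16 S-phase members and 5 of 14 mitotic members. Other genes of the cell cycle, described further on, showed no such separation: 15 of 49 other S-phase genes and 15 of 60 other mitotic genes were lower by more than the technical spread and 2 of each were higher, and all probe sets were lower in 9 of 24 and in 11 of 27. Probe sets of 1 gene read the same RNA and are not replicates of the treatment.

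**Figure D2:**
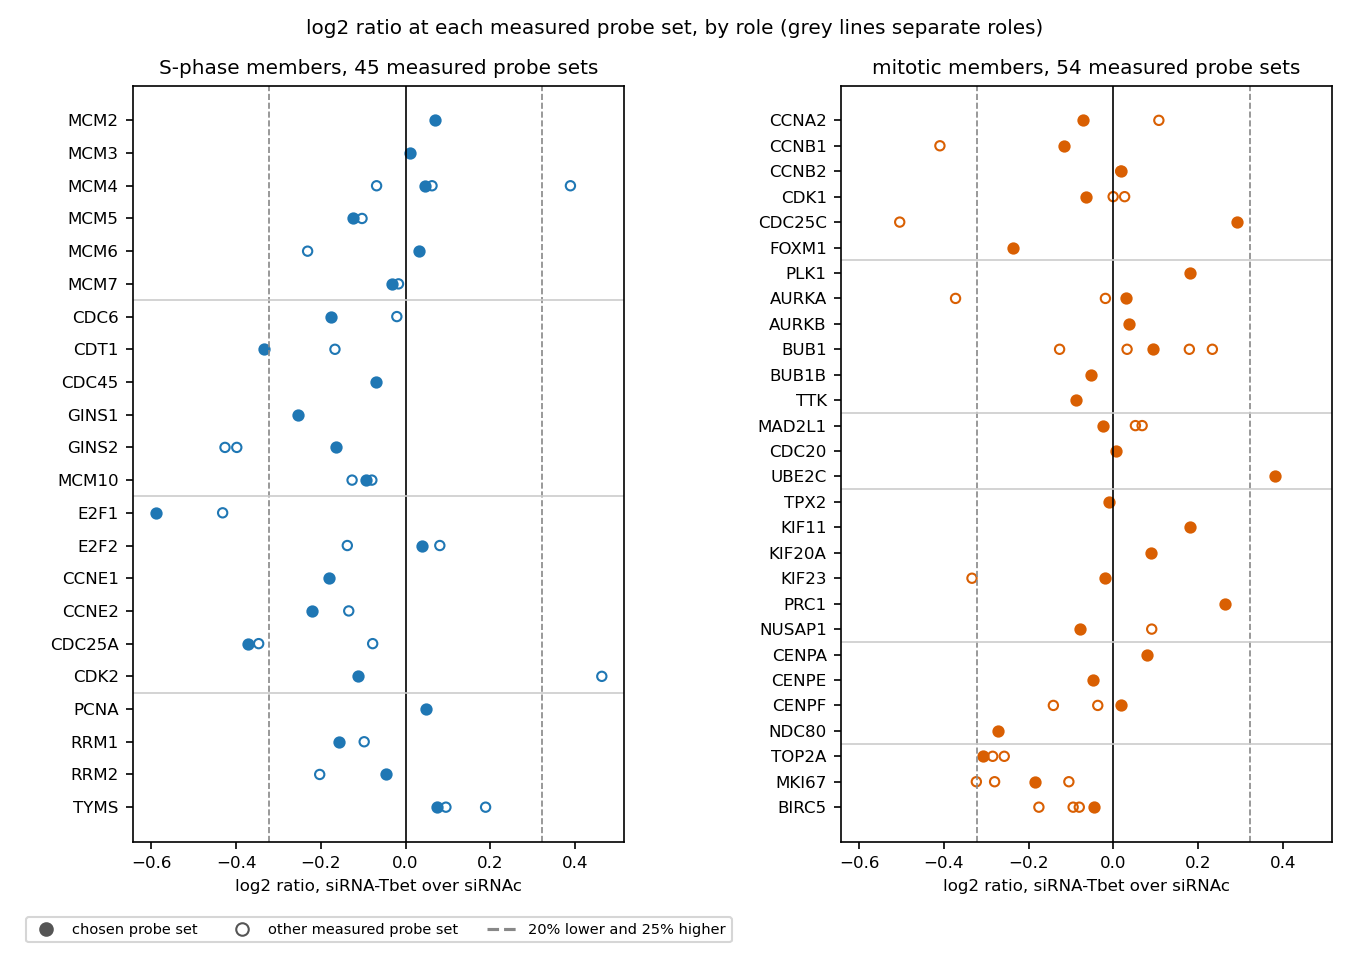
The log2 ratio of siRNA-Tbet over siRNAc at each of the 99 measured probe sets of the members, in rows by gene and in blocks by role; filled points are chosen probe sets, open points the gene's others, and dashed lines mark 20% lower and 25% higher. All 12 points in the block from CDC6 to MCM10 and all 11 points of TOP2A, MKI67 and BIRC5 lie left of 0, while the MCM2 to MCM7 block and the mitotic kinases lie on both sides, although after quantile normalization or lowess only MCM2 of that block stays higher on its chosen probe set.

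The MCM2 to MCM7 proteins form the ring of the replicative helicase, and their transcripts differed little between the arrays. MCM2 had a signal of 15196 in siRNA-Tbet cells and 14477 in siRNAc cells. MCM3 had 22082 in siRNA-Tbet cells and 21916 in siRNAc cells. MCM4 had 20375 in siRNA-Tbet cells and 19754 in siRNAc cells. These 3 were slightly higher in siRNA-Tbet cells, by log2 ratios of 0.07, 0.01 and 0.04, all inside the technical spread of 0.12, and for MCM3 and MCM4 the direction turned after quantile normalization, to -0.07 and -0.02, and after lowess, to -0.05 and -0.0074. The 3 other measured probe sets of MCM4 disagreed among themselves, between -0.07 and 0.39. MCM5 had 10503 in siRNA-Tbet cells and 11452 in siRNAc cells, the lowest ratio of the ring at -0.12, and its second probe set gave -0.10. MCM6 had 26095 in siRNA-Tbet cells and 25528 in siRNAc cells, a log2 ratio of 0.03 that turned to -0.03 after quantile normalization and -0.04 after lowess, and its second, much dimmer probe set was at -0.23. MCM7 had 16914 in siRNA-Tbet cells and 17285 in siRNAc cells. Of the 12 measured probe sets of the ring, 6 were lower and 6 were higher, and the median of the 6 genes was 0.02, with 2 lower and 4 higher. After quantile normalization or lowess 5 of the 6 genes were lower, with medians of -0.05 and -0.04.

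The factors that load the helicase and switch it on were the only block of the S-phase members in which every gene was lower with the deposited scaling. CDT1, which brings the MCM ring to the origin, had 2335 in siRNA-Tbet cells and 2941 in siRNAc cells, 1.26-fold lower. GINS1, a subunit of the active helicase, had 8186 in siRNA-Tbet cells and 9768 in siRNAc cells, a log2 ratio of -0.25. CDC6, the ATPase that works with CDT1, had 5038 in siRNA-Tbet cells and 5693 in siRNAc cells. All 3 differences exceeded the technical spread at their signal, of 0.17, 0.12 and 0.16 on the log2 scale. GINS2, a second GINS subunit, had 4487 in siRNA-Tbet cells and 5028 in siRNAc cells, a log2 ratio 1.05 times the technical spread. Its 2 dimmer probe sets gave -0.43 and -0.40. The dimmest had 153 in siRNA-Tbet cells and 201 in siRNAc cells, near the floor, where the technical spread of 0.40 was as large as its ratio. MCM10, which helps to activate the helicase, had 7001 in siRNA-Tbet cells and 7469 in siRNAc cells, with 3 of 3 probe sets lower. CDC45, the helicase cofactor, had 3846 in siRNA-Tbet cells and 4034 in siRNAc cells, the smallest difference of the block. Thus 6 of 6 genes and 12 of 12 measured probe sets were lower. The median log2 ratio over the genes was -0.17, or 11.1% lower, where all measured genes had -0.018. By more than the technical spread 4 of the 6 genes were lower, against 2 after median scaling and 3 after quantile normalization or lowess. The second probe set of CDT1 can cross-hybridise and gave -0.17, and the second of CDC6 gave only -0.02.

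Among the regulators of the G1/S transition, E2F1 had the lowest ratio of all 50 members. E2F1, the activator of the S-phase genes, had a signal of 1152 in siRNA-Tbet cells and 1733 in siRNAc cells, 66.4% of the siRNAc signal, and its second probe set had 992 and 1338, a log2 ratio of -0.43. It lay at percentile 1.57 among the genes of its signal decile, and its log2 ratio of -0.59 was 2.84 times the technical spread. The related activator E2F2 had 3114 in siRNA-Tbet cells and 3032 in siRNAc cells, so the 2 E2F genes on the list lay on different sides, although 1 of the 3 probe sets of E2F2 was lower, at -0.14. CDC25A, the phosphatase that activates CDK2, had 4196 in siRNA-Tbet cells and 5427 in siRNAc cells, 1.29-fold lower, and the other probe sets gave -0.35 and -0.08. CCNE2, a cyclin E, had 16565 in siRNA-Tbet cells and 19317 in siRNAc cells, a log2 ratio of -0.22 with -0.13 at the second probe set. CCNE1, the other cyclin E, had 3594 in siRNA-Tbet cells and 4073 in siRNAc cells. Both cyclin E genes were thus lower by more than the technical spread. CDK2, their kinase, had 2666 in siRNA-Tbet cells and 2883 in siRNAc cells, but its second probe set had 1077 and 782, a log2 ratio of 0.46, so its direction is not settled. The median of the 6 regulators was -0.20, with 5 lower and 1 higher.

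The genes of the sliding clamp and of nucleotide supply lay on both sides of 0 with the deposited scaling, and all 4 were lower after quantile normalization or lowess. PCNA, the clamp that holds the polymerases on DNA, had 27150 in siRNA-Tbet cells and 26244 in siRNAc cells. TYMS, thymidylate synthase, had 42199 in siRNA-Tbet cells and 40096 in siRNAc cells, with 3 of 3 probe sets higher. PCNA turned to -0.0011 after quantile normalization and -0.02 after lowess, and TYMS to -0.06 and -0.02. RRM1, the large subunit of ribonucleotide reductase, had 15763 in siRNA-Tbet cells and 17563 in siRNAc cells, a log2 ratio of -0.16 with -0.10 at its second probe set. Of these 4 genes RRM1 alone differed by more than the technical spread. RRM2, the small subunit, had 25991 in siRNA-Tbet cells and 26818 in siRNAc cells, with -0.20 at its second probe set. The median of the 4 genes was 0.0019, against -0.09 after quantile normalization and -0.07 after lowess.

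The mitotic cyclins and their activators differed in both directions. FOXM1, a transcription factor of the G2 and mitotic genes, had 4725 in siRNA-Tbet cells and 5567 in siRNAc cells, a log2 ratio of -0.24 from its only probe set, which can cross-hybridise. CCNB1, a cyclin B, had 13002 in siRNA-Tbet cells and 14104 in siRNAc cells, with -0.41 at its dimmer probe set. CDK1, the kinase of mitotic entry, had 11736 in siRNA-Tbet cells and 12267 in siRNAc cells, and its 2 other measured probe sets lay within 0.03 of 0. Only FOXM1 of these 3 was past the technical spread on its chosen probe set. CCNA2, a cyclin A, had 4810 in siRNA-Tbet cells and 5056 in siRNAc cells, with 0.11 at the second probe set, and CCNB2 had 8554 in siRNA-Tbet cells and 8444 in siRNAc cells. CDC25C, the phosphatase that activates CDK1, had 735 in siRNA-Tbet cells and 600 in siRNAc cells, a log2 ratio of 0.29, but its second probe set gave -0.50. The probe sets of CDC25C and CCNA2 disagreed in direction, and the median of the 6 genes was -0.07.

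The mitotic kinases and the genes of the spindle checkpoint showed no common direction. PLK1, a kinase of spindle assembly, had 3211 in siRNA-Tbet cells and 2835 in siRNAc cells, a log2 ratio of 0.18 that was 1.03 times the technical spread. BUB1, a checkpoint kinase, had 5480 in siRNA-Tbet cells and 5140 in siRNAc cells, with 4 of 5 probe sets higher, 1 of these and the lower one being below the floor on 1 array. AURKA had 7022 in siRNA-Tbet cells and 6875 in siRNAc cells, and AURKB had 2842 in siRNA-Tbet cells and 2770 in siRNAc cells. The Aurora kinases thus differed by at most 0.04 on the log2 scale, although the dimmest probe set of AURKA was lower, with 109 in siRNA-Tbet cells, below the floor, and 190 in siRNAc cells. BUB1B had 10755 in siRNA-Tbet cells and 11160 in siRNAc cells, and TTK, the kinase that starts the checkpoint, had 3839 in siRNA-Tbet cells and 4083 in siRNAc cells. MAD2L1, the checkpoint inhibitor of anaphase, had 13958 in siRNA-Tbet cells and 14207 in siRNAc cells, with 0.07 and 0.05 at its other measured probe sets. CDC20, the target of MAD2L1, had 5568 in siRNA-Tbet cells and 5545 in siRNAc cells. PLK1 was the only one of these 8 genes past the technical spread. UBE2C, the ubiquitin-conjugating enzyme of the anaphase-promoting complex, had the highest ratio of all members at 0.38, with signals of 298 in siRNA-Tbet cells and 229 in siRNAc cells. Both signals lay near the floor, where the technical spread of 0.40 was larger than its ratio.

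Motor proteins and bundlers of the spindle held the clearest higher signals. PRC1, which bundles the microtubules of the central spindle, had 7371 in siRNA-Tbet cells and 6138 in siRNAc cells, 1.20-fold higher and 2.12 times the technical spread. KIF11, the motor that separates the spindle poles, had 6640 in siRNA-Tbet cells and 5856 in siRNAc cells, a log2 ratio of 0.18. Each is read by 1 probe set, so neither has a second reading. KIF20A, a motor of cytokinesis, had 1590 in siRNA-Tbet cells and 1497 in siRNAc cells. KIF23, the motor that works with PRC1 at the midzone, had 2898 in siRNA-Tbet cells and 2937 in siRNAc cells, with -0.33 at its dimmer probe set. TPX2, which activates Aurora A on the spindle, had 9675 in siRNA-Tbet cells and 9743 in siRNAc cells. NUSAP1 had 17824 in siRNA-Tbet cells and 18826 in siRNAc cells, with 0.09 at the second probe set. Of the 6 genes 3 were lower and 3 were higher, with a median of 0.04, and with median scaling, which turned TPX2 and KIF23, 1 was lower and 5 were higher.

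Kinetochore genes lay near 0 apart from NDC80, and the genes of chromosome structure were lower. NDC80, which binds spindle microtubules at the kinetochore, had 4922 in siRNA-Tbet cells and 5941 in siRNAc cells, a log2 ratio of -0.27 from 1 probe set. CENPA, the histone of the centromere, had 2151 in siRNA-Tbet cells and 2038 in siRNAc cells on a probe set that can cross-hybridise. CENPE had 1977 in siRNA-Tbet cells and 2044 in siRNAc cells. CENPF had 8293 in siRNA-Tbet cells and 8193 in siRNAc cells, with -0.04 and -0.14 at its other measured probe sets. TOP2A, the topoisomerase that untangles chromosomes, had 10674 in siRNA-Tbet cells and 13214 in siRNAc cells. Its log2 ratio of -0.31 was 2.47 times the technical spread and lay at percentile 0.58 of its signal decile, and its second probe set gave -0.26. The third was dim, with 100.3 in siRNA-Tbet cells, below the floor, and 178 in siRNAc cells, so its ratio is set by the floor. MKI67, the proliferation antigen Ki-67, had 6962 in siRNA-Tbet cells and 7908 in siRNAc cells, with 4 of 4 probe sets lower, between -0.32 and -0.11. BIRC5, the survivin subunit of the chromosomal passenger complex, had 6221 in siRNA-Tbet cells and 6426 in siRNAc cells, with 4 of 4 probe sets lower and the largest at -0.18. All 11 measured probe sets of TOP2A, MKI67 and BIRC5 were thus lower, while AURKB, the kinase of the same passenger complex, was not.

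**Figure D3:**
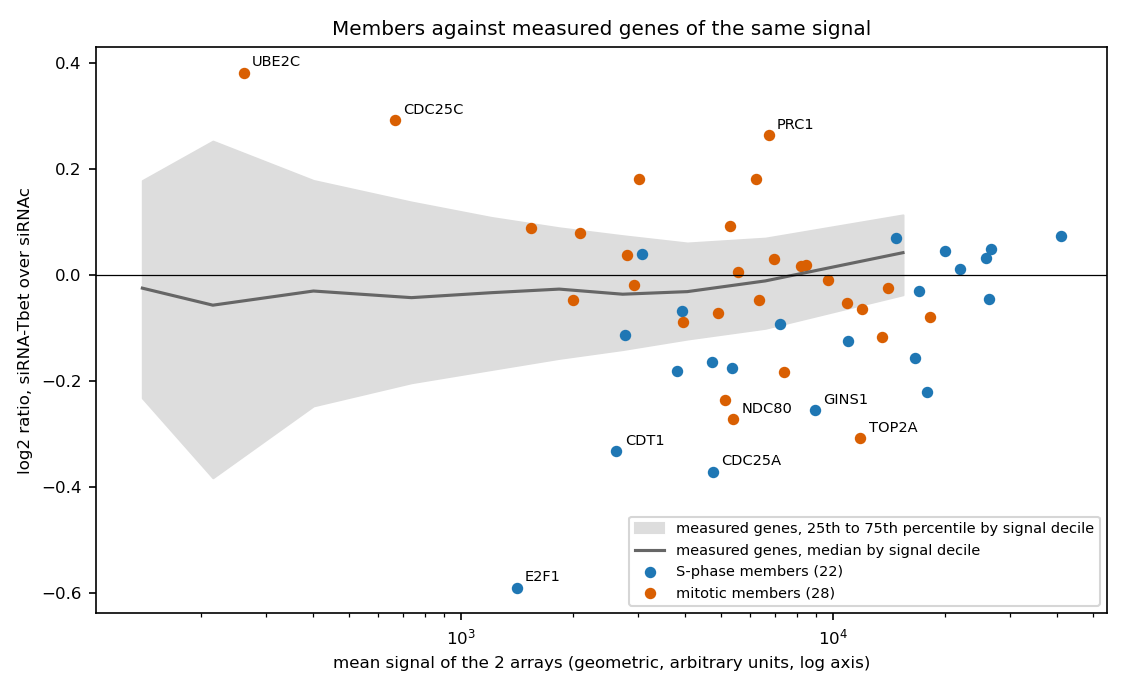
The log2 ratio of each member against its mean signal on a log axis, with S-phase members in blue and mitotic members in orange; the line and the grey band are the median and the 25th to 75th percentiles of all measured genes in 10 signal classes. The ratios of measured genes drift upwards at the brightest signals, to a median of 0.04, where many MCM genes, PCNA and TYMS lie. Members lie outside the band on both sides: E2F1, CDC25A, CDT1 and TOP2A are among those below it, and PRC1 and KIF11 among those above it.

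With the deposited scaling, the difference between S-phase and mitotic members was not seen in other genes of the same pathways. A further 140 genes of the cell cycle were listed by role, none of them a member. Of 49 measured S-phase genes among them 39 were lower, or 79.6%, with a median log2 ratio of -0.078. Of 60 measured mitotic genes 50 were lower, or 83.3%, with a median of -0.084. The difference of these medians was 0.0054, against -0.088 for the members, and with members and other genes together it was -0.014. Both shares were above the 53.6% of all measured genes that were lower. These counts under the 3 other scalings were 38 of 49 S-phase genes and between 45 and 49 of 60 mitotic genes. The medians of the other S-phase and mitotic genes were -0.107 and -0.082 after quantile normalization, and -0.096 and -0.075 after lowess. Under these 2 scalings the S-phase median was thus the lower one, as in the members. Among genes with signals over 1000 on both arrays, calls lay at or below the background, of 4.17% called lower and 2.73% higher. All 49 S-phase genes were in that range, and 2 were called lower and 0 higher. Of the 53 mitotic genes in that range, 0 were called in either direction. Over all 60 mitotic genes 2 were called lower, both at least 1.5-fold, and 1 higher. The shares of all measured genes were 10.9% called lower, 2.88% at 1.5-fold, and 7.68% called higher.

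The wider S-phase lists continued the pattern of small, lower signals. Of 15 other genes of origin recognition and licensing 12 were lower, with a median of -0.12. ORC6, a subunit of the origin recognition complex, had 8502 in siRNA-Tbet cells and 10407 in siRNAc cells on its only probe set, which can cross-hybridise. DBF4, the activator of the CDC7 kinase, had 10198 in siRNA-Tbet cells and 11600 in siRNAc cells. Of 20 polymerase, clamp loader and RPA genes 14 were lower, with a median of -0.08. PRIM2, a primase subunit, had 1490 in siRNA-Tbet cells and 1900 in siRNAc cells, and RPA3, a subunit of the single-strand binding protein, had 7107 in siRNA-Tbet cells and 8757 in siRNAc cells. POLE, the catalytic subunit of polymerase epsilon, lay on the other side with 2338 in siRNA-Tbet cells and 1997 in siRNAc cells. Of 14 other enzymes and fork proteins 13 were lower. TK1, thymidine kinase, had 3421 in siRNA-Tbet cells and 4706 in siRNAc cells, a log2 ratio of -0.46 at both of its measured probe sets.

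The wider mitotic lists were lower in 17 of 20 spindle and cytokinesis genes, 17 of 20 kinetochore and passenger genes and 16 of 20 regulators and condensin genes. KIFC1, a motor of the spindle poles, had 708 in siRNA-Tbet cells and 1187 in siRNAc cells, 1.68-fold lower on its only measured probe set. ZWINT, a kinetochore protein, had 17182 in siRNA-Tbet cells and 21268 in siRNAc cells, and CEP55, which acts in abscission, had 3972 in siRNA-Tbet cells and 4886 in siRNAc cells. INCENP, the scaffold of the passenger complex, was on the other side with 773 in siRNA-Tbet cells and 577 in siRNAc cells. Of 27 measured genes of G1 control, which are cyclins and kinases of G1, pocket proteins, other E2F and DREAM factors and CDK inhibitors, 20 were lower, or 74.1%, with a median of -0.06. By more than the technical spread 5 were lower and 5 higher, and between 16 and 18 were lower under the 3 other scalings. LIN52, a MuvB subunit, had 1381 in siRNA-Tbet cells and 1891 in siRNAc cells, while LIN54, the MuvB subunit that binds the CHR, had 262 in siRNA-Tbet cells and 166 in siRNAc cells, near the floor. CDKN1A, the CDK inhibitor p21, had 3304 in siRNA-Tbet cells and 4264 in siRNAc cells, a log2 ratio of -0.37. CDKN1B, the inhibitor p27, had 3909 in siRNA-Tbet cells and 3919 in siRNAc cells, so of this pair p21 alone was called lower.

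**Figure D4:**
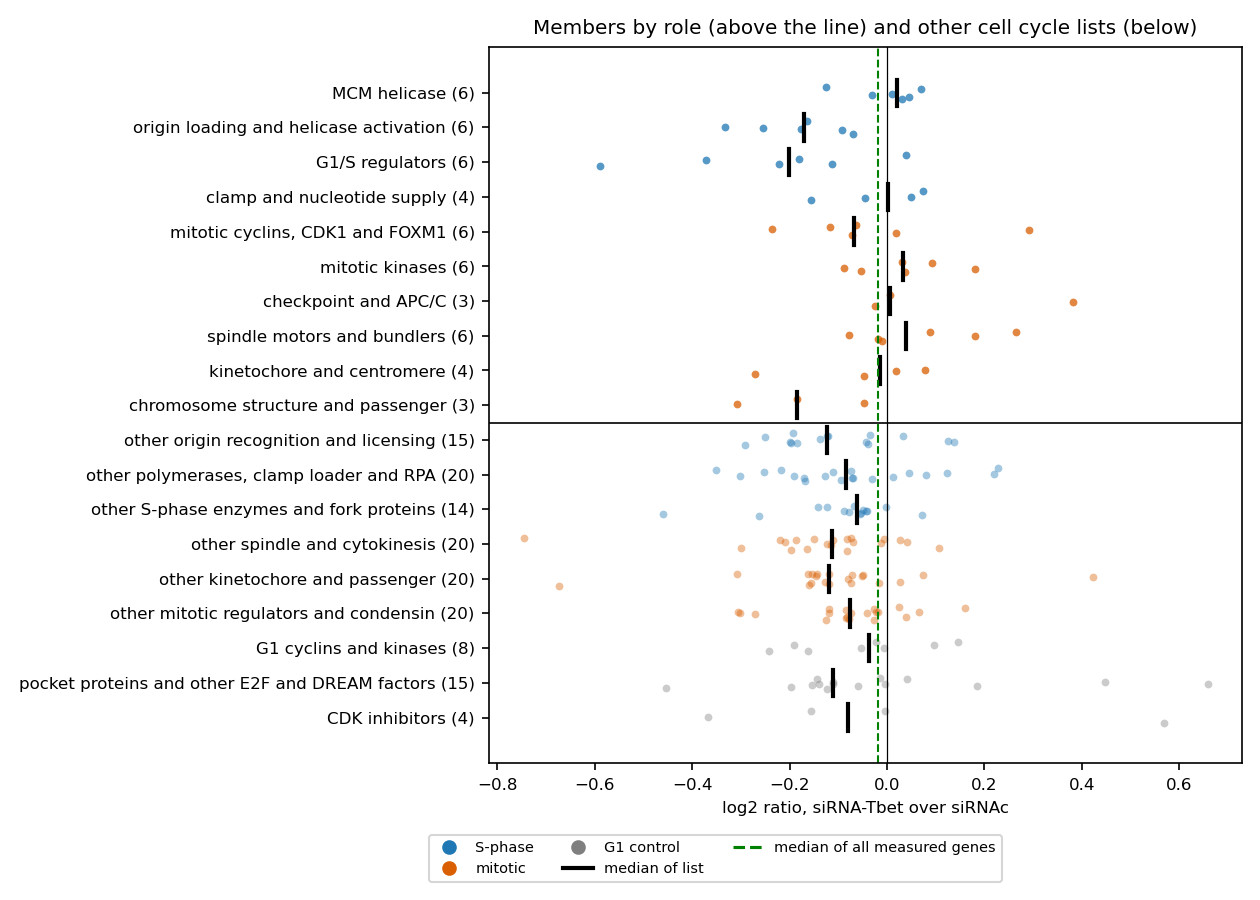
The log2 ratio of siRNA-Tbet over siRNAc for the measured genes of each role, with members above the line and other cell cycle genes below it and the number of measured genes in brackets; black bars are list medians and the green line is the median of all measured genes, -0.018. Medians of the member roles lie on both sides of the line, from -0.20 for G1/S regulators to 0.04 for spindle motors and bundlers, and all 9 other lists have medians below 0.

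Promoter motifs were found at different shares in S-phase and mitotic members, and members with and without them had overlapping ratios. RefSeq promoters, from 250 bases before to 50 bases after the start, were matched by symbol for 40 of the 50 members. A gene with several annotated starts was counted as holding a motif when any of its windows did, on either strand. The E2F motif TTTNNCGC was present in 13 of 18 S-phase members (72.2%) and 3 of 22 mitotic members (13.6%), where 10.8% of 15843 protein-coding genes and 6.89% of all 35116 promoter windows held it. The CHR motif TTTGAA was present in 1 of 18 S-phase members and 16 of 22 mitotic members (72.7%), where 15.8% of protein-coding genes and 15.2% of all windows held it. CCAAT, the letters of the NF-Y box, was present in 13 of 18 S-phase members and 19 of 22 mitotic members, where 42.1% of protein-coding genes and 34.6% of all windows held it. S-phase members with the E2F motif had a median log2 ratio of -0.03, with 7 of 13 lower, and those without it had -0.09, with 5 of 5 lower. After quantile normalization or lowess 11 of 13 members with the motif and 5 of 5 without it were lower, with medians of -0.07 and -0.12 after quantile normalization. The E2F motif stood both in genes with low ratios (E2F1, CDC25A, CDT1 and GINS1) and in MCM2, MCM3, MCM6, PCNA and TYMS, which were slightly higher in siRNA-Tbet cells with the deposited scaling, MCM2 alone of these 5 also after quantile normalization and lowess. Mitotic members with the CHR motif had a median of -0.0069, with 8 of 16 lower, and those without it had a median of -0.0054, with 3 of 6 lower. A match is a run of letters, and whether a factor binds there was not tested.

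**Figure D5:**
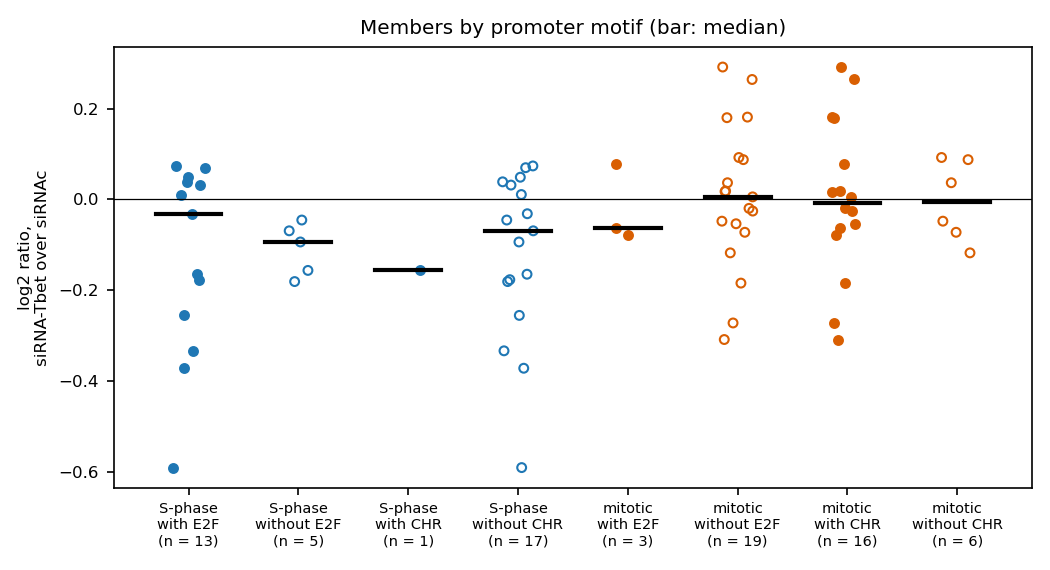
The log2 ratio of siRNA-Tbet over siRNAc for the 40 members with a RefSeq promoter, split by class and by the presence of each motif in the promoter; filled points hold the motif, open points do not, and bars are medians. The S-phase members with the E2F motif span the whole range of that class, from -0.59 for E2F1 to 0.07 for TYMS (lower after quantile normalization or lowess), and the mitotic members with and without the CHR motif have medians of -0.0069 and -0.0054.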

How the data were processed

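RNA from 1 siRNA-Tbet and 1 siRNAc culture was read on Affymetrix 3' expression arrays from 1 µg of total RNA, per the labels' protocols. The deposited values are linear intensities per probe set, made with MAS5 per the submitters' processing notes, which give no version. Leaving out the top and bottom 2%, the mean of each array was 1000, so no further scaling was applied. MAS5 subtracts mismatch signal, which makes dim values noisy, and bright signals can be compressed. Of 54675 probe sets, 62 controls and 1801 with several genes were left out, 11721 are unnamed here, and 41091 had 1 gene, of which 41037 had symbols updated through RefSeq (GRCh38.p14). Each gene was read by the probe set whose log2 signal, averaged over the arrays, was highest, with sets of the suffix _x_at, which can cross-hybridise, used last. Signals were raised to a shared floor, so that a floored ratio cannot take the sign opposite to the unfloored ratio of the same 2 arrays. With 1 array per group, genes were counted by fixed folds (20% lower or 25% higher, 1.5-fold and 2-fold) and no p-value was computed. For the technical spread, the log2 ratios of a gene's 2 brightest measured probe sets, again with _x_at sets used last, were subtracted. The SD of these differences over genes was divided by the square root of 2, in 10 classes of mean signal.

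The members, the lists, the folds and the alternatives were chosen with earlier results of these data known. Every member is named, and of each other list up to 4 genes with the largest ratio and no measured probe set on the other side could be named; promoters were printed for the 3 S-phase genes with an E2F motif and the 3 mitotic genes with a CHR motif that were largest by the same rule. Calculations used Python 3.11.15, pandas 2.3.3 and statsmodels 0.14.6, and were tested on simulated data. Alternatives were quantile normalization, median scaling, subtraction of a lowess curve (span 0.3), other floors and filters, and other choices of probe set.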

Additional observations from a re-analysis of the deposited data

How the results depend on the processing

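The S-phase median stayed between -0.114 and -0.081 under 12 alternatives. With quantile normalization or lowess 20 of 22 S-phase members were lower, against 15 with the deposited scaling, since MCM3, MCM4, MCM6, PCNA and TYMS turned. With median scaling KIF23 and TPX2 turned to higher and the mitotic median was 0.0069, where the median of all measured genes was 0.0034. The mitotic median became -0.062 with each gene's second-brightest measured probe set and -0.053 with plain probe sets (suffix _at only). With second-brightest probe sets 8 of 14 mitotic members were lower, and fewer members could be read. The number of members called lower (by 20% or more) was 6 under both of these choices of probe set. Second-brightest probe sets read 16 S-phase and 14 mitotic members, and 12.4% of all genes read this way were called lower. Plain probe sets read 17 S-phase and 21 mitotic members, and 12.7% of all genes read this way were called lower. With the floor at the 75th percentile, which leaves out UBE2C, 0 members were called higher (by 25% or more), against 2.94% of measured genes. With the other cell cycle lists in place of the members, the difference between S-phase and mitotic medians was 0.0054, of the opposite sign. It was -0.014 with both together. These 2 alternatives used the deposited scaling and were chosen after seeing the data. With quantile normalization or lowess the S-phase median of the other lists lay below the mitotic one, as for the members. E2F1 and CDC25A stayed called lower under all 12 alternatives, and CDT1 under 6 of the 11 that gave it a value, with log2 ratios between -0.33 and -0.17. Of 566 values of single members under the alternatives, 543 moved by less than the technical spread. Other floors and filters returned the same ratio for every member they kept, so those values could not move. Only the changes of scaling and of probe set could move a ratio, for E2F1 and CDC25A as for the others. No paired analysis was possible because each group holds 1 array. Signals near the floor, as for UBE2C, carry the largest technical spread, of 0.40 on the log2 scale. CDC25C, with 735 in siRNA-Tbet cells and 600 in siRNAc cells, lay further from the floor and had a spread of 0.30.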
